A study of Mus musculus with 8 samples.

Results

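The expression of 8 genes that make the waxes and other lipids of the sebaceous gland, or carry its hormone signal, was described in mouse dorsal skin. The genes were chosen by name as a list (Awat1, Awat2, Elovl3, Scd3, Mc5r, Far2, Dgat2l6 and Soat1). Of these, 8 of 8 were found among 22740 listed protein-coding genes and passed the filter on low counts that left 15163 genes for testing. The study asked whether butyrate, a short-chain fatty acid made from dietary fibre by gut bacteria, changes skin that meets an allergen. All mice were female BALB/c animals, 6 to 8 weeks old and kept on a low-fibre diet. RNA of whole dorsal skin was sequenced in 1 library per mouse, with 2 mice in each of 4 groups. Baseline CTL mice (replicates 1 and 2) drank water and met no allergen, and baseline butyrate mice (replicates 1 and 3) drank 400 mM sodium butyrate. Lesional CTL mice (replicates 4 and 5) drank water and received 4 exposures to 15 µg of house dust mite extract (HDM) on the shaved back under a patch over 2 weeks. Lesional butyrate mice (replicates 3 and 4) received the same exposures with butyrate started 2 weeks earlier. Baseline skin was taken without allergen at the end of the butyrate treatment. The effects of HDM, of shaving and patching, and of the time of collection therefore cannot be told apart in the comparisons of lesional with baseline skin. Nothing in the sources used here says that mice of a group came from separate litters or cages, and p-values measure the spread between these mice only.

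Sebaceous glands open into the hair follicle, and their cells, the sebocytes, fill with lipid and burst to release sebum onto the hair and skin. Sebum of the mouse is rich in wax esters, each made from a fatty alcohol and a fatty acid, together with triglycerides and sterol esters. Its fatty acids are lengthened by elongases and desaturated by stearoyl-CoA desaturases, and part of them is reduced to alcohols. Acyltransferases then join the acid and the alcohol, while melanocortin peptides stimulate sebum secretion through a receptor on these cells.

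Library totals were between 18004136 and 21085544 counts, so that 3 counts, the floor used for a detectable gene, were 0.138 to 0.169 CPM, a gene's counts scaled to a common library size. The lowest count of a member was 66, for Dgat2l6 in baseline butyrate replicate 3. Beside the gene list, 6 other markers of sebocytes were looked up (Pparg, Krt79, Mgst1, Plin2, Cidea and Hsd3b6). Of these, 6 of 6 were detected in all 8 libraries, with Hsd3b6 between 11.5 and 44.0 CPM and Krt79 between 405 and 2617 CPM. In whole skin 15163 of 22740 listed genes passed the filter. Detection therefore cannot show which cells the RNA came from, and it does not check the label of the list. One library stood apart. In baseline butyrate replicate 3, 21 genes of the hair shaft and inner root sheath summed to 22655 CPM, against 37.8 to 54.6 CPM in the other 7 libraries. Of 14319 expressed genes, 27.1% differed over 2-fold from the other baseline butyrate mouse, against 1.79% to 5.01% between the mice of the other groups. What part hair growth had in the values of this library was not tested, and the results are given with and without it. Because these are bulk libraries, a smaller number of sebocytes and less RNA per sebocyte cannot be told apart in any of the values.

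The 8 genes lie at 6 places of the genome (GRCm38, GENCODE vM21). The genes of 3 acyltransferases are neighbours on chromosome X. Awat2 lies at chrX:100402221-100442717 on the minus strand, Dgat2l6 at chrX:100524838-100546144 and Awat1 at chrX:100572251-100578205, both on the plus strand. The gaps are 82.1 kb between Awat2 and Dgat2l6 and 26.1 kb between Dgat2l6 and Awat1, where no other listed gene lies. Scd3 (chr19:44203269-44244016, plus strand) is 1 of 4 desaturase genes in a row, with Scd2 49.7 kb away, and Elovl3 (chr19:46131897-46135694, plus strand) follows on the same chromosome. Far2 lies at chr6:148047259-148182758 on the plus strand, and Soat1 at chr1:156424525-156474331 on the minus strand. Exonic sequence was unique at 50 bases for Awat1, Awat2, Elovl3 and Mc5r. For Scd3, 6.54% of such windows also occur in other genes, among them Scd1 and Scd2. A read of 50 bases from these stretches would match more than 1 gene, and longer or paired reads were not examined. Genes on the opposite strand overlap 3 members. Of these, Otud6a (within Awat2) had 0 counts in every library, Pitx3 (with Elovl3) had 6 to 54 counts and Ergic2 (with Far2) had 1344 to 1947 counts.

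Sequence before the start site was taken from RefSeq (GRCm38.p6), which held an entry for 7 start sites of 6 members (2 of them of Awat2). In each, 250 bases were searched on both strands for 4 motifs. These were the core motif of nuclear receptors such as PPARG (AGGTCA), the CCAAT box (CCAAT), the TATA box (TATAAA) and the E-box (CACGTG). Awat1 and Dgat2l6 are shown because they are adjacent and had the highest correlation of any pair of members across libraries, and Awat2 and Soat1 because they held a motif. Capitals mark the CCAAT letters. Sequences run 5′ to 3′ on the strand of the gene and end at the base before the RefSeq start site, and the first 2 shown hold none of the 4 motifs. The windows are chrX:100571997-100572246 (plus strand, Awat1), chrX:100524588-100524837 (plus strand, Dgat2l6), chrX:100442718-100442967 (minus strand, Awat2) and chr1:156474329-156474578 (minus strand, Soat1).
Awat1: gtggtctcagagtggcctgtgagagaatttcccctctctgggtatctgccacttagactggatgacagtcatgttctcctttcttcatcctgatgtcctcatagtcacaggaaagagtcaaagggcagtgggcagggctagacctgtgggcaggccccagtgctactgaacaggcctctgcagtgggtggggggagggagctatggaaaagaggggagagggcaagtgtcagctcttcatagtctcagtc
Dgat2l6: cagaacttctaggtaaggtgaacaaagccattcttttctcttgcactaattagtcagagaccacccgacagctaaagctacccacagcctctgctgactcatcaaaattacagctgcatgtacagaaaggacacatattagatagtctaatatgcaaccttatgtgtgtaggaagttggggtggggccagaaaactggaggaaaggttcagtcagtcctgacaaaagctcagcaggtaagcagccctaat
Awat2: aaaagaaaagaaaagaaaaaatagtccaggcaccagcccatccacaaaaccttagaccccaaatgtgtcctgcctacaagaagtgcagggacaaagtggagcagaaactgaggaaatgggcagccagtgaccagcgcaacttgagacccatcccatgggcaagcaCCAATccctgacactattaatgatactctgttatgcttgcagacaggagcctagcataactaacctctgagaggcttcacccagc
Soat1: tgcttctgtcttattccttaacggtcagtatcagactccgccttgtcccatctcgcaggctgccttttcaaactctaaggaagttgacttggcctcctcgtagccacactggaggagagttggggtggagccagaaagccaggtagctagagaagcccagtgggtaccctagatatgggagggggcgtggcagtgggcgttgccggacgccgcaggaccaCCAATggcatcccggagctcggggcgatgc
CCAAT occurred 85 bases before the start of Awat2 and 30 bases before that of Soat1, and on the other strand 121 bases before the second start of Awat2. Among 32851 promoter windows of the same length, 33.8% held the CCAAT box, 14.0% the nuclear receptor motif, 12.4% the TATA box and 6.0% the E-box. The last 3 motifs were found in none of the member windows, which says only that these letters are not in these 250 bases.

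The values of each member in each library follow, in the order in which sebum lipids are made, and the plot of the 8 genes by group shows them side by side. All levels are CPM scaled by edgeR's TMM factors.

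**Figure D1:**
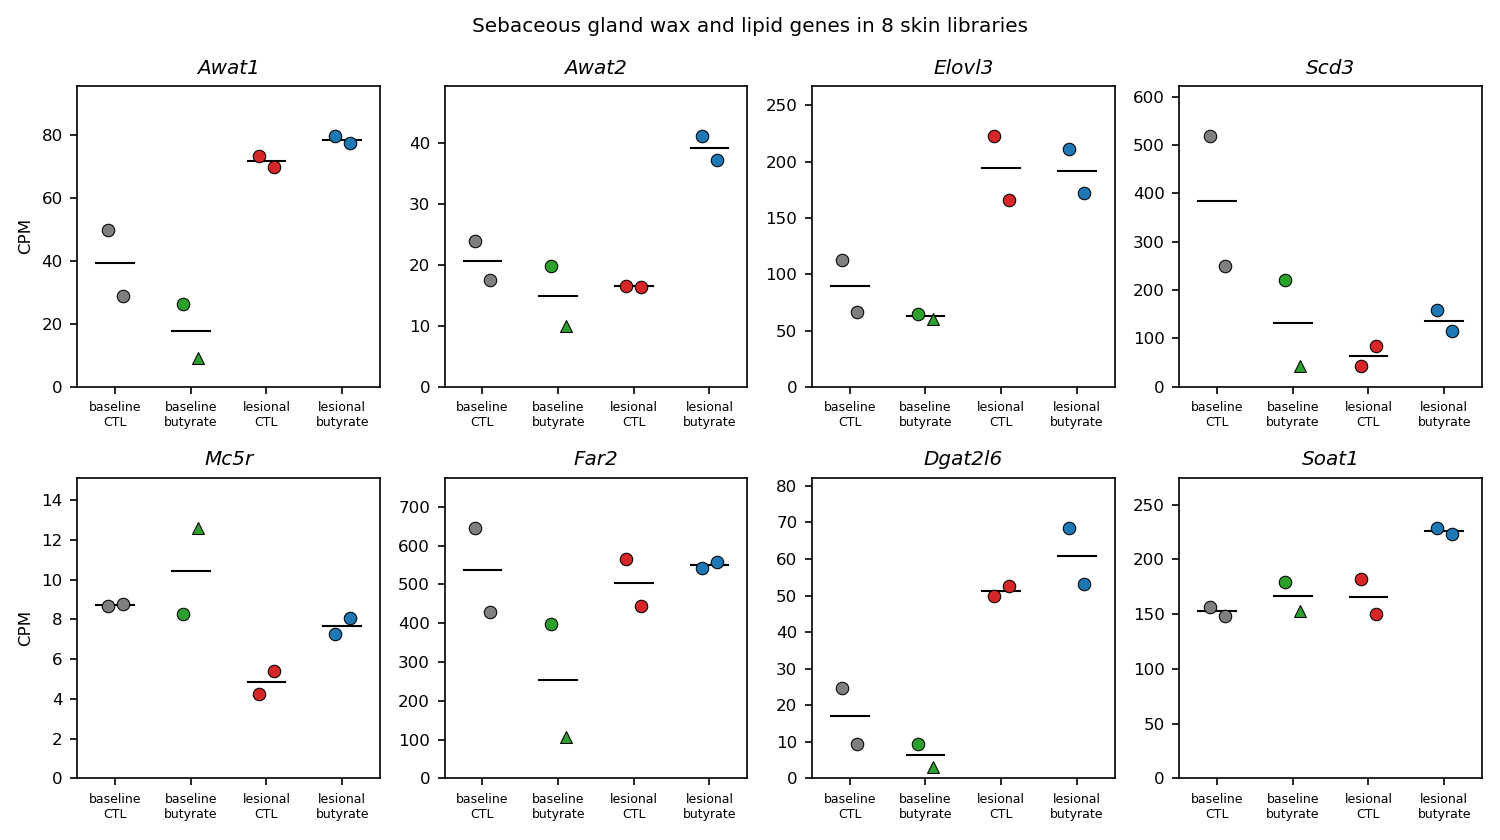
Level of each of the 8 genes in each library (CPM on a linear axis from 0), by group on the horizontal axis, with 1 point per mouse, a bar at the mean of 2 mice and a triangle for baseline butyrate replicate 3. Awat2 and Soat1 were highest in the 2 lesional butyrate mice, Awat1, Elovl3 and Dgat2l6 were higher in the 4 lesional mice than in the 4 baseline mice, and Scd3 was lowest in baseline butyrate replicate 3 and lesional CTL replicate 4.

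Elovl3, an elongase that extends saturated and monounsaturated fatty acids to very long chains, was higher in all lesional than in all baseline libraries. It measured 113 and 66.2 CPM in baseline CTL skin, 64.9 and 60.1 CPM in baseline butyrate skin, 223 and 165 CPM in lesional CTL skin and 212 and 172 CPM in lesional butyrate skin. The lesional mice of either drinking water were above every baseline mouse, and the lesional butyrate values lay within the lesional CTL range. Between lesional and baseline CTL skin the fitted log2 fold change was 1.11 ± 0.29 (SE), and its FDR, the Benjamini-Hochberg adjusted p over all genes of edgeR's quasi-likelihood test, was 0.121. Without the library that stood apart it was 1.12 ± 0.28, with an adjusted p of 0.0342. In lesional skin the log2 difference between butyrate and CTL was -0.02 ± 0.28, an interval of 1 SE on either side that spans 0.

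Scd3, a stearoyl-CoA desaturase that in the mouse is known mainly from the sebaceous gland and puts the double bond into fatty acids, differed most of the 8 between the CTL groups. It measured 518 and 249 CPM in baseline CTL skin and 221 and 42.2 CPM in baseline butyrate skin. In lesional skin it measured 42.9 and 84.5 CPM in CTL mice and 158 and 115 CPM in butyrate-treated mice. Both lesional CTL mice were below both baseline CTL mice and below both lesional butyrate mice. The mean in lesional CTL skin (63.7 ± 29.4 CPM, SD, n = 2) was 6.02-fold below that in baseline CTL skin (384 ± 190 CPM), or -2.59 ± 0.82 (SE) on the log2 scale (FDR 0.173 in edgeR). Without baseline butyrate replicate 3 the same difference was -2.59 ± 0.46 (FDR 0.0136 in edgeR). The butyrate mean in lesional skin (136 ± 30.5 CPM) was 2.14-fold the CTL mean. This difference (log2 1.10 ± 0.79, FDR 1.00 with all libraries and 0.333 without that library) did not pass the threshold. Of the gene lists outside the members, that of suprabasal keratinocytes, 11 genes that include Krt1, Krt10 and Lor, had the highest r with Scd3. The 11 suprabasal genes summed to 6602 and 8255 CPM in lesional CTL skin and 20659 and 15462 CPM in lesional butyrate skin. In baseline skin they summed to 21753 and 20184 CPM in CTL mice and 20476 and 5059 CPM in butyrate-treated mice. The r of Scd3 with that sum, on log2 CPM over 8 libraries that share their groups, was 0.91, and 0.88 over 7 libraries without replicate 3 of baseline butyrate skin. Over the same 8 and 7 libraries r was 0.77 and 0.68 with skeletal muscle markers and 0.74 and 0.72 with adipocyte markers. It was -0.41 and -0.90 with neutrophil markers and -0.10 and -0.69 with sebocyte markers outside the members. The sebocyte sum is weighted towards abundant genes. In lesional CTL replicate 4, Krt79 and Fabp5 gave 2405 and 958 of its 5297 CPM. Of its 20 tested genes, 13 had lower and 7 higher fitted values in lesional than in baseline CTL skin, where Scd3 was lower. Between the lesional groups 17 were higher with butyrate and 3 lower, where Scd3 was higher. Where the suprabasal sum lay between 20184 and 21753 CPM, Scd3 ranged from 158 to 518 CPM. What part the keratinocytes had in the Scd3 values was not tested.

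Far2, a reductase that turns fatty acyl-CoA into the fatty alcohols of wax esters, had overlapping values in lesional and baseline CTL skin. It measured 647 and 428 CPM in baseline CTL skin, 399 and 108 CPM in baseline butyrate skin, 565 and 445 CPM in lesional CTL skin and 543 and 557 CPM in lesional butyrate skin. Apart from the value of 108 CPM in baseline butyrate replicate 3, the libraries lay within a range of 399 to 647 CPM, and the groups overlapped in both comparisons that include the lesional CTL mice. The log2 difference between lesional and baseline CTL skin was -0.09 ± 0.57 and turned to 0.04 when counts were scaled by library totals alone. That scaling moved the median of all genes by 0.13 in this comparison.

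The acyltransferases Awat1 and Awat2 both make wax esters from a fatty alcohol and an acyl-CoA, yet their values followed different groups. Awat1 measured 49.8 and 28.7 CPM in baseline CTL skin, 26.4 and 9.15 CPM in baseline butyrate skin, 73.3 and 69.9 CPM in lesional CTL skin and 79.6 and 77.5 CPM in lesional butyrate skin. Every lesional mouse was above every baseline mouse, and the lesional butyrate mice were above the lesional CTL mice by a small margin (log2 0.13 ± 0.48, FDR 1.00). Against baseline CTL skin the lesional CTL mean was 1.83-fold higher (log2 0.87 ± 0.49, FDR 0.364 in edgeR, and 0.87 ± 0.24, FDR 0.0441, without the library that stood apart), a fold under the threshold of 2 in both fits.

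Awat2 measured 23.8 and 17.4 CPM in baseline CTL skin, 19.8 and 9.91 CPM in baseline butyrate skin, 16.5 and 16.4 CPM in lesional CTL skin and 41.1 and 37.1 CPM in lesional butyrate skin. The lesional butyrate mice were above all 6 other mice, which lay between 9.91 and 23.8 CPM. How many of all genes had this order was not counted. The lesional butyrate mean (39.1 ± 2.81 CPM, SD, n = 2) was 2.38-fold the lesional CTL mean (16.5 ± 0.0452 CPM). In edgeR the log2 fold change was 1.25 ± 0.34 (SE), with an unadjusted p of 0.00944 and an FDR of 0.797 over all genes. Without baseline butyrate replicate 3 the same log2 fold change of 1.25 had an SE of 0.17 and an FDR of 0.0528, past the threshold. That library is not in this comparison, and its removal changed the estimate of the spread that all groups share. The difference between the butyrate effects in lesional and in baseline skin was 1.72 ± 0.48 on the log2 scale, with a p of 0.0104 in edgeR and an FDR of 0.840 over all genes. Without that library it was 1.31 ± 0.27, with an FDR of 0.441.

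Dgat2l6, a relative of the diacylglycerol and wax acyltransferases, had the widest difference between lesional and baseline skin among the acyltransferases. It measured 24.7 and 9.38 CPM in baseline CTL skin, 9.47 and 3.14 CPM in baseline butyrate skin, 49.96 and 52.6 CPM in lesional CTL skin and 68.6 and 53.2 CPM in lesional butyrate skin. The lesional mice did not overlap with the baseline mice, and the 2 lesional groups were separated by less than 1 CPM at their nearest values. Lesional CTL skin was 3.01-fold higher than baseline CTL skin (log2 1.59 ± 0.60, FDR 0.226 in edgeR, and 1.59 ± 0.41 with an FDR of 0.0366 without the library that stood apart).

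Soat1, which joins cholesterol to fatty acids and is expressed in many cell types besides sebocytes, had the narrowest range of the 8 as a ratio of its highest to its lowest library. It measured 156 and 149 CPM in baseline CTL skin, 179 and 153 CPM in baseline butyrate skin, 182 and 150 CPM in lesional CTL skin and 229 and 223 CPM in lesional butyrate skin. The 2 lesional butyrate mice were above all 6 others, an order that was not counted over all genes. Their mean (226 ± 4.15 CPM, SD, n = 2) was 1.36-fold that of lesional CTL skin (166 ± 22.3 CPM), or 0.45 ± 0.15 on the log2 scale (FDR 0.942 in edgeR, and 0.168 without the library that stood apart).

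Mc5r (chr18:68337596-68342446, plus strand), the melanocortin receptor of exocrine glands, was the member with the fewest counts per kilobase in 3 of 4 groups. It measured 8.67 and 8.77 CPM in baseline CTL skin, 8.29 and 12.6 CPM in baseline butyrate skin, 4.27 and 5.40 CPM in lesional CTL skin and 7.25 and 8.09 CPM in lesional butyrate skin. The lesional CTL mice were the lowest of all 8, and baseline butyrate replicate 3, where 6 other members had their lowest value, was the highest. The lesional CTL mean was 1.80-fold below the baseline CTL mean (log2 -0.85 ± 0.27, FDR 0.175 in edgeR, and -0.85 ± 0.18 with an FDR of 0.0208 without baseline butyrate replicate 3). The lesional butyrate mean was 1.59-fold above the lesional CTL mean (log2 0.66 ± 0.27, FDR 1.00, and 0.174 without it).

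Reassigning 2 against 2 mice exactly allows no p under 0.333 for any gene on its own, so that the tests rest on the spread that edgeR estimates over all genes. The first comparison asks whether butyrate changes these genes in HDM-exposed skin. Of the 8 genes, 7 had a higher fitted value in lesional butyrate than in lesional CTL skin. Their median log2 fold change was 0.35, against -0.01 over all genes tested, of which 49.1% were above 0. In 6 of 8 genes (Awat1, Awat2, Scd3, Mc5r, Dgat2l6 and Soat1) the lower of the 2 butyrate values lay above the higher of the 2 CTL values, as it did for 22.4% of all genes. A gene was called changed at an FDR below 0.1 and a fold change above 2, the thresholds of the study. By edgeR's quasi-likelihood test 0 of 8 members were called, as were 0% of all genes, where the lowest FDR of any gene was 0.289. At an unadjusted p below 0.05 there were 3 of 8 members (Awat2, Soat1 and Mc5r), against 4.84% of all genes. DESeq2 and limma-voom with sample quality weights each called 1 member, Awat2, and 0.818% and 0.778% of all genes. Without those weights limma-voom called 0 members and 1 gene in all. In the fit without baseline butyrate replicate 3, edgeR called Awat2 alone, and 1.22% of all genes.

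**Figure D2:**
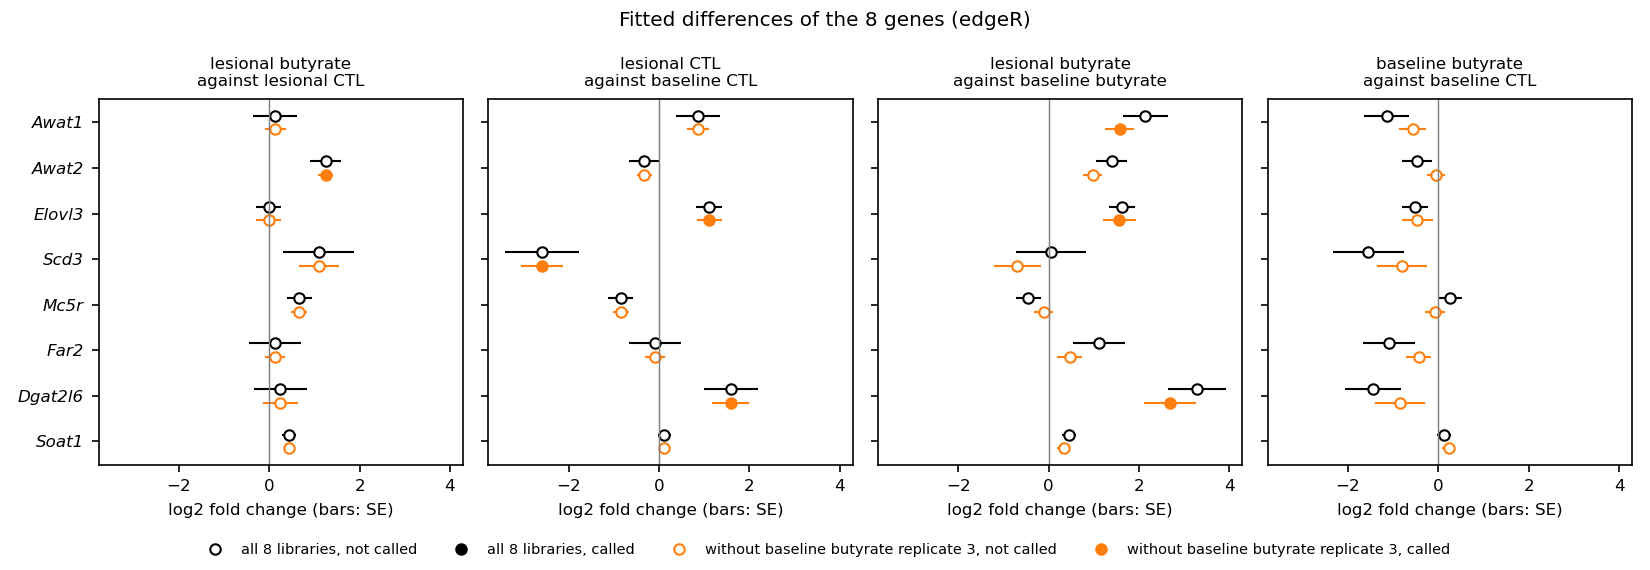
Fitted log2 fold changes of the 8 genes in 4 comparisons (horizontal axis, with bars of 1 SE), with all 8 libraries in black and without baseline butyrate replicate 3 in orange, filled where the gene passed an FDR below 0.1 and a fold change above 2. No gene passed with all libraries, and without that library Awat2 passed in lesional skin, 3 genes passed in lesional against baseline CTL skin and 3 in lesional against baseline butyrate skin.

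The second comparison asks what HDM exposure does to these genes in mice that drank water. Elovl3 and Dgat2l6, which lengthen and esterify fatty acids, were 2.17-fold and 3.01-fold higher in lesional CTL skin, and Scd3 and Mc5r were 6.02-fold and 1.80-fold lower. The directions differed between members, with 4 fitted values above 0 and 4 below, a median of 0.02, against -0.02 over all genes. The mice of the 2 groups did not overlap in 6 of 8 members, 3 higher (Awat1, Elovl3, Dgat2l6) and 3 lower (Awat2, Scd3, Mc5r), which is close to the 75.2% of all genes for which this was so. With all libraries edgeR called 0 of 8 members and 3.58% of all genes. An unadjusted p below 0.05 was found for 4 of 8 members (Elovl3, Scd3, Mc5r and Dgat2l6), against 19.7% of all genes. Without the library that stood apart 3 members were called, against 12.5% of all genes, with Elovl3 and Dgat2l6 higher and Scd3 lower. DESeq2 and limma-voom with sample quality weights called these same 3 genes with all libraries in the fit, and 7.21% and 13.4% of all genes. Without the weights limma-voom called 0 members and 3.81% of all genes.

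In butyrate-treated mice the same exposure was compared with baseline butyrate skin, a comparison that includes the library that stood apart as 1 of its 4. Dgat2l6 was 9.66-fold higher in lesional butyrate skin (log2 3.28 ± 0.64, FDR 0.174 in edgeR), Awat1 4.41-fold, Elovl3 3.07-fold and Awat2 2.63-fold. The median log2 fold change of the 8 was 1.26, against -0.04 over all genes. Between the groups 7 of 8 members did not overlap, against 32.5% of all genes, 6 of them higher and Mc5r lower. With all libraries edgeR called 0 of 8 members and 0.35% of all genes, while 5 of 8 members and 13.1% of all genes had an unadjusted p below 0.05. DESeq2 called 4 members (Awat1, Awat2, Elovl3 and Dgat2l6) and 4.6% of all genes. With or without the quality weights limma-voom called 0 members, beside 0% and 0.277% of all genes. With that library left out, a single mouse remained in its group and was assumed to vary like the others. The median then fell to 0.72, the fold of Dgat2l6 to 6.43, and edgeR called 3 members (Awat1, Elovl3 and Dgat2l6) and 5.94% of all genes. The log2 fold change of Scd3 turned from 0.05 ± 0.78 with all libraries to -0.69 ± 0.52.

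Baseline butyrate skin was compared with baseline CTL skin to ask whether butyrate acts on these genes without allergen. In 4 of 8 members (Awat1, Elovl3, Scd3 and Far2) the higher of the 2 butyrate values lay below the lower of the 2 CTL values, against 15.9% of all genes. The median log2 fold change was -0.80, against 0.00 over all genes. All 8 members had an FDR between 0.714 and 0.759, and edgeR called 0 of 8 members and 0% of all genes. At an unadjusted p below 0.05 there were 0 of 8 members, against 3.49% of all genes. DESeq2 and limma-voom also called 0 members, beside 0.290% and 0% of all genes. In the library that stood apart, 7 of 8 members, all but Mc5r, were lower than in the other baseline butyrate mouse. Without it the median was -0.45, edgeR called 0 of 8 members and 0% of all genes, and Mc5r changed sign to -0.07 ± 0.22. With replicate 3 as the only baseline butyrate mouse, 5 members were called lower (Awat1, Awat2, Scd3, Far2 and Dgat2l6), and 24.1% of all genes were called.

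Whether the effect of butyrate differs between lesional and baseline skin was tested as an interaction. The difference was above 0 for 8 of 8 members, between 0.32 for Soat1 and 2.64 for Scd3 on the log2 scale, against 46.7% of all genes. Awat1 and Scd3 were higher in both lesional butyrate mice than in both lesional CTL mice and lower in both baseline butyrate mice than in both baseline CTL mice. Separately these held for 22.4% and 15.9% of all genes, and the share with both was not counted. For Awat1 the nearest values were 77.5 against 73.3 CPM in lesional and 26.4 against 28.7 CPM in baseline skin. For Scd3 they were 115 against 84.5 CPM and 221 against 249 CPM. By edgeR 0 of 8 members and 0% of all genes were called for the difference of the butyrate effects. At an unadjusted p below 0.05 in the same test there was 1 member, Awat2, against 4.64% of all genes. DESeq2 and limma-voom called 0 members, beside 0.211% and 0% of all genes, and without baseline butyrate replicate 3 edgeR called 0 members and 0% of all genes. These 5 comparisons share groups with each other, so that a high or low mouse enters more than 1 of them.

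Per kilobase of exon, which allows levels of different genes to be compared, the order of the members changed between baseline and lesional skin. In baseline CTL skin Scd3 led with 108 ± 53.5 CPM per kilobase (SD, n = 2), followed by Far2 with 73.5 ± 21.2 and Elovl3 with 45.4 ± 16.7. The ranges of Scd3 and Far2 overlapped, as did those of Elovl3 and Awat1 (28.2 ± 10.7). In lesional CTL skin Elovl3 led with 98.2 ± 20.4 CPM per kilobase, followed by Far2 with 69.0 ± 11.6 and Awat1 with 51.5 ± 1.74. Scd3 came after them with 17.9 ± 8.29, in a range that overlapped with that of Soat1 (17.0 ± 2.27). In lesional butyrate skin the first 4 genes kept that order, with Elovl3 at 97.2 ± 14.1, Far2 at 75.3 ± 1.35, Awat1 at 56.5 ± 1.09 and Scd3 at 38.3 ± 8.59, and no neighbours in the order overlapped. Awat2 stood below Dgat2l6 in lesional CTL skin (7.74 ± 0.0212 against 10.8 ± 0.395 CPM per kilobase) and above it in lesional butyrate skin (18.4 ± 1.32 against 12.8 ± 2.29). Mc5r was last in 3 groups, at 1.24 ± 0.205 CPM per kilobase in lesional CTL skin, and above Dgat2l6 in baseline butyrate skin alone, where Scd3, Far2 and Elovl3 led with overlapping ranges for the first 3.

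The make-up of the summed level of the 8 genes shows the same shift as shares. Scd3 made up 33.6% and 26.1% of the sum in baseline CTL skin, 3.71% and 8.54% in lesional CTL skin and 11.8% and 9.22% in lesional butyrate skin. Elovl3 moved the other way, from 7.33% and 6.92% in baseline CTL skin to 19.2% and 16.7% in lesional CTL skin and 15.8% and 13.9% in lesional butyrate skin. The share of Far2 stayed between 40.6% and 48.9% in the 7 libraries other than baseline butyrate replicate 3, where it was 27.1%. In that library Soat1, which is not restricted to the gland, had its highest share, 38.4%, against 10.2% to 19.3% in the others, and the sum of the 8 genes was 398 CPM, against 927 to 1541 CPM.

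**Figure D3:**
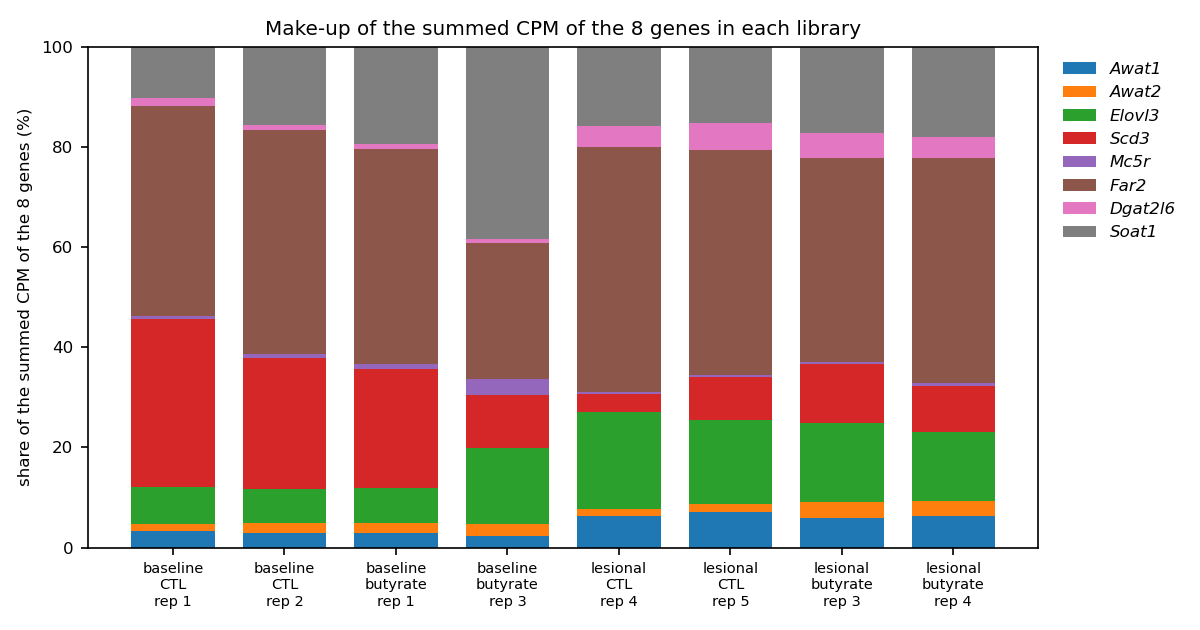
Share of each of the 8 genes (percent, stacked to 100) in their summed CPM, with 1 bar per library. Scd3 took 23.8% to 33.6% in the baseline libraries other than replicate 3 of the butyrate group and 3.71% to 11.8% in the 4 lesional libraries, and Soat1 took 38.4% in baseline butyrate replicate 3.

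Across the 8 libraries, the levels of 3 members rose and fell together most closely. On log2 CPM the Pearson r between Awat1 and Dgat2l6, the pair that lie next to each other on chromosome X, was 0.98 over 8 libraries and 0.99 over the 7 without baseline butyrate replicate 3. Between Awat1 and Elovl3, on another chromosome, it was 0.90 and 0.98. Awat2, the third acyltransferase gene of that region, had its highest r with Soat1 (0.82, and 0.84 without that library) and an r of 0.72 with Awat1 that dropped to 0.44. Scd3 had an r of 0.14 with Awat1 that turned to -0.57 without the library, and an r of 0.26 with Mc5r that rose to 0.88. All of these points share the same 4 groups of mice and the same libraries, and they are given as descriptions.

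Genes of the same families outside the list were counted in the same fits. Of 10 relatives of the wax and glyceride acyltransferases and reductases, 9 were tested. In lesional against baseline CTL skin 2 of 9 were called higher by edgeR and 0 lower, against 3.58% of all genes in either direction. These were Soat2, a second sterol acyltransferase, at 0.611 and 0.444 CPM in baseline CTL skin and 4.80 and 4.61 CPM in lesional CTL skin (log2 3.14 ± 0.48, FDR 0.0412 in edgeR), and Far1, the widely expressed relative of Far2, at 72.3 and 70.4 CPM against 169 and 153 CPM (log2 1.17 ± 0.22, FDR 0.0604). Lesional butyrate skin had 0.907 and 0.791 CPM of Soat2 and 124 and 128 CPM of Far1, in both cases below both lesional CTL mice. The log2 difference between lesional butyrate and lesional CTL skin was -2.46 ± 0.46 for Soat2 (FDR 0.737 in edgeR, and -2.46 ± 0.27 with an FDR of 0.0412 without the library that stood apart), opposite in sign to that of Soat1. For Far1 it was -0.35 ± 0.21 (FDR 1.00, and 0.163 without that library).

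Of 15 tested elongases, desaturases and enzymes of fatty acid synthesis, 14 had a higher fitted value in lesional butyrate than in lesional CTL skin, against 49.1% of all genes. Their median was 0.28. By edgeR 0 of 15 were called in each of the 5 comparisons, against 0% to 3.58% of all genes. In lesional butyrate against lesional CTL skin edgeR gave an unadjusted p below 0.05 for 2 of 15, against 4.84% of all genes. The most abundant was Scd1, the main desaturase of skin, which measured 4907 and 5580 CPM in lesional CTL skin and 4859 and 6023 CPM in lesional butyrate skin. Next came Elovl4, an elongase for the very long chains of epidermal ceramides, with 1740 and 1551 CPM against 2294 and 2047 CPM. Scd1 measured 4456 and 7343 CPM in baseline CTL skin, a range that holds all 4 of its lesional values. The other neighbours of Scd3 were Scd2, with 243 and 293 CPM in lesional CTL skin against 150 and 253 CPM in baseline CTL skin, and Scd4, with 1.11 to 2.91 CPM over all libraries. Without the library that stood apart, Elovl6, an elongase of palmitate named here after its value was seen, was called higher in lesional butyrate skin (1411 and 1204 CPM against 733 and 529 CPM, log2 1.05 ± 0.20, FDR 0.0933 in edgeR). In the same fit Elovl7, another elongase named after its value was seen, was called higher in lesional skin in both treatments. It measured 113 and 70.7 CPM in baseline CTL skin and 224 and 199 CPM in lesional CTL skin (log2 1.2 ± 0.26, FDR 0.0233). It measured 66.3 CPM in baseline butyrate replicate 1 and 276 and 195 CPM in lesional butyrate skin (log2 1.83 ± 0.35, FDR 0.0547).

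The ligand of the melanocortin receptors had almost no transcript in this tissue. Pomc, the precursor of the melanocortin peptides, did not pass the filter, at 0 to 0.233 CPM. Of 11 listed genes of melanocortin ligands, receptors and accessory proteins other than Mc5r, 5 were tested and 0 were called in any comparison with all libraries. Pcsk1, a processing protease of Pomc that is named after its value was seen, had its highest value, 2.19 CPM, in baseline butyrate replicate 3. It measured 0 and 0.111 CPM in baseline CTL skin, under the floor of 3 counts, and 0.267 and 0.600 CPM in lesional CTL skin. No difference is read from values this low. The most abundant were Atrn, an accessory protein of melanocortin signalling, at 64.3 to 118 CPM, and Mrap, the accessory protein of the corticotropin receptor, at 16.8 to 35.8 CPM.

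Of 20 tested markers of sebocytes outside the 8, 17 had a higher fitted value in lesional butyrate than in lesional CTL skin, against 49.1% of all genes. Their median was 0.31. In that comparison edgeR called 0 of 20 and 0% of all genes. It gave an unadjusted p below 0.05 for 3 of 20, against 4.84% of all genes. In lesional against baseline CTL skin 2 of 20 were called, both higher, against 3.58% of all genes in either direction. Krt79, a keratin of the sebaceous duct, measured 797 and 644 CPM in baseline CTL skin, 2405 and 1840 CPM in lesional CTL skin and 2617 and 2036 CPM in lesional butyrate skin (log2 1.56 ± 0.35 between the CTL groups, FDR 0.0891). Fabp5, a fatty acid binding protein also found in epidermal keratinocytes, measured 236 and 198 CPM in baseline CTL skin and 958 and 608 CPM in lesional CTL skin (log2 1.85 ± 0.37, FDR 0.0728). Among the other markers looked up above, Hsd3b6, Pparg and Mgst1 were lower in both lesional CTL mice than in both baseline CTL mice. Such a separation, in either direction, was found for 75.2% of all genes. Of the 20 markers 9 were lower and 4 higher in this way. Hsd3b6 measured 27.6 and 21.1 CPM against 44.0 and 33.7 CPM. Pparg measured 23.9 and 24.4 CPM against 26.0 and 34.0 CPM, and Mgst1 220 and 200 CPM against 239 and 268 CPM. Cidea overlapped, at 66.3 and 55.1 CPM against 81.6 and 65.0 CPM. Plin2 measured 251 and 247 CPM in lesional CTL skin against 237 and 228 CPM. Of the 20 fitted values between lesional and baseline CTL skin, 7 were above 0 and 13 below, against 48.7% of all genes above 0. Acsbg1, an acyl-CoA synthetase named after its value was seen, measured 419 and 352 CPM in baseline CTL skin and 168 and 152 CPM in lesional CTL skin. Without baseline butyrate replicate 3 its log2 difference between these groups was -1.27 ± 0.13.

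**Figure D4:**
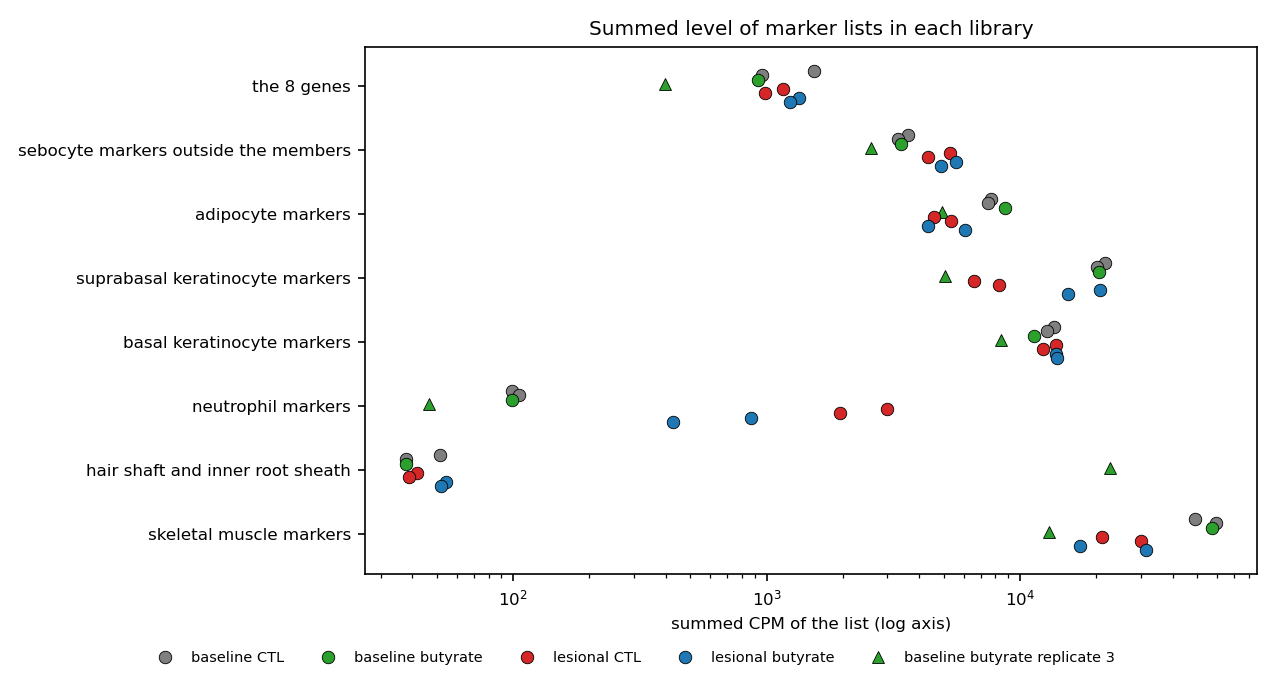
Summed CPM of the 8 genes and of 7 marker lists in each library on a log axis, coloured by group, with a triangle for baseline butyrate replicate 3. That library had 22655 CPM of hair shaft and inner root sheath genes against 37.8 to 54.6 CPM in the others, and the neutrophil list rose from 46.7 to 105 CPM in baseline skin to 426 to 2986 CPM in lesional skin.

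Markers of other cells moved with the same groups. Neutrophil markers, 15 genes, summed to 99.1 and 105 CPM in baseline CTL skin, 2986 and 1948 CPM in lesional CTL skin and 867 and 426 CPM in lesional butyrate skin. Of 14 tested, 12 were called higher in lesional CTL than in baseline CTL skin, against 3.58% of all genes in either direction. Mc5r was lowest in the mice where this sum was highest, with an r of -0.93 over 8 libraries that share their groups (-0.91 over 7, without that of high hair shaft genes). Over the same 8 and 7 libraries r was 0.89 and 0.86 for Elovl3, 0.85 and 0.81 for Dgat2l6 and 0.80 and 0.79 for Awat1. It was -0.41 and -0.90 for Scd3, 0.52 and 0.19 for Far2, 0.36 and 0.25 for Soat1 and 0.28 and -0.06 for Awat2. With the suprabasal sum the r of Mc5r was 0.16 and 0.95. Adipocyte markers, 14 genes led by Car3 and Fabp4, summed to 4565 and 5344 CPM in lesional CTL skin, 4323 and 6084 CPM in lesional butyrate skin and 7692 and 7489 CPM in baseline CTL skin. With all libraries 0 of 14 were called in each comparison. Basal keratinocyte markers, 8 genes led by Krt5 and Krt14, summed to 12365 to 14043 CPM in the lesional mice and 8442 to 13593 CPM in the baseline mice, with 0 of 8 called with all libraries. The summed level of skeletal muscle markers, 12 genes led by Acta1 and Myh4, was 49178 to 59628 CPM in 3 baseline libraries, 13030 CPM in baseline butyrate replicate 3 and 17249 to 31313 CPM in lesional skin, with 0 of 12 called. Hair shaft and inner root sheath genes, led by Krt71 and Tchh, had 0 of 14 called, and of 11 suprabasal markers 1, Dsg1a, was called lower in lesional CTL skin (log2 -1.24, FDR 0.0738 in edgeR). Without baseline butyrate replicate 3, the median log2 fold change in lesional against baseline CTL skin was 4.73 for neutrophil and -1.15 for suprabasal markers. In that fit it was -1.06 for muscle, -0.08 for basal, -0.46 for hair and -0.44 for adipocyte markers. In lesional butyrate against lesional CTL skin the neutrophil and suprabasal medians were -2.38 and 0.96. Those of muscle, basal, hair and adipocyte markers were -0.18, 0.06, 0.04 and 0.22. In lesional against baseline butyrate skin the neutrophil and suprabasal medians were 2.62 and 0.07. Those of the other lists, in the same order, were -1.40, 0.17, 0.44 and -0.58. Among single genes, Krt15 had a log2 fold change of -1.80 in lesional against baseline CTL skin and 1.03 between the lesional groups. Dst had -1.56 between the CTL groups and -1.31 between the butyrate groups, where Plin4 had -1.25 and Lep -2.02. These genes are named after their values were seen. What part these cells had in the values of the 8 genes was not tested.

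The 10 genes whose profile over the 8 libraries was most like the mean of the members' standardised log2 CPM, out of 14190 candidates, had a Pearson r of 0.97 to 0.98. Cyp4f39, a cytochrome P450 of fatty acid omega-hydroxylation that also stood on the list of sebocyte markers, came first (0.98, and 0.97 over 7 libraries). Sdr16c6, a short-chain dehydrogenase, had an r of 0.98 and measured 132 CPM in baseline butyrate replicate 3 and 313 and 280 CPM in lesional butyrate skin. Mboat7 and Cers5, an acyltransferase of phosphatidylinositol and a ceramide synthase, both had an r of 0.97. The others were Nupr1, Cpd, Faah, Hdgf, Aknad1 and Psapl1. Without baseline butyrate replicate 3 the rank of these 10 genes ran from 4 (Cers5) to 118 (Aknad1). Nupr1 and Cpd ranked 46 and 23 in that order, and Cyp4f39 ranked 6.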

How the data were processed

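RNA of dorsal skin from 8 mice in 4 groups of 2 was analysed. The authors aligned reads with STAR (version 2.5.2) to GRCm38 through RNASik, used featureCounts to count reads in genes, and deposited the raw counts of protein-coding genes, not normalized. The sample labels gave the groups, with SCFA read as butyrate, vehicle as CTL, and the disease label as lesional skin. The series design counts more samples than the 8 analysed here.

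The main test was the quasi-likelihood test of edgeR (4.0.16, R 4.3.3, robust fit, TMM factors) on 15163 genes that passed filterByExpr with a minimum count of 10, with all 8 libraries sharing 1 estimate of the spread. A gene was called where its FDR (Benjamini-Hochberg) was below 0.1 and its fold change above 2. The standard error of a log2 fold change was its size divided by the square root of F. Library totals were 18004136 to 21085544 counts, and no interval from counting error alone is given. limma-voom (limma 3.58.1), the method of the study, and DESeq2 (1.42.0) were alternatives, beside other scalings, filters, thresholds, fits of the compared groups alone and fits without each library. The fit of the lists without baseline butyrate replicate 3 was added after the data were seen. edgeR, limma-voom without quality weights and DESeq2 were run on simulated counts, only for butyrate against CTL in lesional and in baseline skin. The simulated counts had the same spread for every gene and library, and no library that stood apart. The other comparisons and limma-voom with quality weights were not checked in this way. Correlations used log2 CPM with a prior count of 2.

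The members, lists and tests were chosen with earlier results of these data known. Genes outside the members were named by rule. These were the genes of a list called in any comparison (the 4 with the largest change where more were called, with a mean of at least 1 CPM), the 2 most abundant of a list with none called, the neighbours of Scd3, and the 10 genes most like the members' mean profile. Exon lengths came from GENCODE vM21, and windows of 50 bases were compared among its transcripts. The name of the deposited table says that counting was reverse-stranded, and members that overlap an antisense gene are named. The promoters of Elovl3 and Mc5r and the proteins were not analysed here.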

Additional observations from a re-analysis of the deposited data

How the results depend on the processing

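With all libraries 0 of 8 members were called in every comparison, and 83 of 99 such counts under the alternatives were also 0. Some of these were fixed in advance. An FDR threshold of 0.05 and the absence of a fold threshold were applied to the main fit itself. There the lowest FDR of a member was 0.121, so neither could call a member. In lesional butyrate against lesional CTL skin 1 member (Awat2) was called by DESeq2, by limma-voom with sample quality weights and in the fit of the compared groups alone. These called 0.818%, 0.778% and 0.168% of all genes. In lesional against baseline CTL skin the same 3 alternatives called 3 members (Elovl3, Scd3 and Dgat2l6), beside 7.21%, 13.4% and 12.9% of all genes. Scaling by library totals called 1 (Elovl3) there, beside 3.96% of all genes. DESeq2 called 4 members and 4.6% of all genes in lesional against baseline butyrate skin. Leaving out 1 library at a time gave 0 to 1 called members in lesional butyrate against lesional CTL skin, 0 to 3 in lesional against baseline CTL skin, 0 to 6 in lesional against baseline butyrate skin, 0 to 5 in baseline butyrate against baseline CTL skin and 0 to 5 for the difference of the butyrate effects. The calls came from leaving out either baseline butyrate mouse, the pair that differed most. Without replicate 1, which leaves the mouse with high hair shaft genes alone in its group, the counts were 1, 3, 6, 5 and 5, beside 191, 1936, 2990, 3777 and 3275 of 15677 genes in all. Without replicate 3 they were 1, 3, 3, 0 and 0, beside 187, 1911, 912, 0 and 0 of 15349 genes.

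Of the fitted log2 fold changes under the alternatives, 697 kept their sign and call, 44 became called and 11 changed sign, all of them in values between -0.09 and 0.26 with all libraries. Without 1 library, that of Far2 ran from -0.036 to 0.31 in lesional butyrate against lesional CTL skin and from -0.36 to 0.24 in lesional against baseline CTL skin, where scaling by library totals gave 0.041. Soat1 ran from -0.0017 to 0.23 in baseline butyrate against baseline CTL skin and from -0.019 to 0.25 in lesional against baseline CTL skin. Elovl3 ran from -0.21 to 0.21 between the lesional groups, Mc5r from -0.073 to 0.53 between the baseline groups and Scd3 from -0.69 to 1.70 in lesional against baseline butyrate skin. The cause of these changes was not tested. The fit of the compared groups alone gives no value for the difference of the butyrate effects. No paired analysis was possible because no 2 groups have more than 1 replicate number in common. Depth did not limit the members, whose lowest count was 66.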
